A study of Mus musculus with 12 samples.

Results

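The genes of cholesterol and fatty acid synthesis were followed in primary mouse microglia, the macrophages of the brain, after ischemia and recovery. The set held 34 genes chosen by name: 18 enzymes of sterol synthesis, the sterol carrier Stard4, 5 regulators of the pathway and 10 genes of fatty acid synthesis. Of these, 33 had a probe set that named no other gene, and all 33 were among the 15273 genes tested. The exception was Acat2, which makes acetoacetyl-CoA and had no probe set of its own. For each gene the brightest probe set over the 12 arrays was used.

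Microglia from mice labelled TLR4 knockout (KO-labelled) and from WT mice were kept for 24 h in hypoxic or hypoglycemic conditions, called ischemia here, or in normoxic or normoglycemic control conditions. All cells, controls included, then had 24 h of reperfusion with normal oxygen or glucose, so every array shows cells after recovery. The 4 groups were KO-labelled ischemia, KO-labelled control, WT ischemia and WT control, with 3 Affymetrix Mouse Gene 1.0 ST arrays each, numbered 1 to 3. The labels give neither the age or strain of the mice nor how the Tlr4 allele was made. Nothing in them tells whether replicate arrays were separate cultures or mice. The p-values therefore reflect the spread of these samples alone, which may be technical, and with 3 arrays a group the precision is low.

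The labels disagree in places. The source name of the WT ischemia arrays reads as control normoxia while their titles stand for hypoxia, and the titles were followed. The extraction protocol speaks of myocytes. Tlr4, the gene named in the knockout label, read 8.71 ± 0.22 log2 units on the KO-labelled arrays and 8.74 ± 0.18 on the WT arrays (SD, n = 6 each), a difference smaller than the spread. The files do not say whether its probe set lies in the altered part of the gene. Of 12 microglial markers 11 were measured, all above the dim limit of 5.36 log2 units. Csf1r, Itgam, Tyrobp and C1qa read 12.3, 12.0, 12.1 and 11.4. Trem2, Olfml3, Fcrls, Cx3cr1 and Aif1 read 10.9, 9.44, 9.24, 8.95 and 7.88. P2ry12 and Tmem119, markers of microglia in the brain, read 5.75 and 6.51. Of 7 genes of monocytes and border macrophages 6 were measured. Mrc1 and Ms4a7 read 11.2 and 9.81, F13a1 and Lyve1 5.77 and 5.36, and Cd163 and Ccr2 5.01 and 4.83. Of 9 muscle genes 8 were above the limit, with a list mean of 6.23 log2 units. The limit is low: 15273 of all 19938 genes with a probe set exceeded it, so these counts alone do not tell which cells were present. The WT arrays numbered 2 stood apart in the mean of the microglial markers, at 10.24 (ischemia) and 10.26 (control) against 9.41 to 9.75 on the other WT arrays. The KO-labelled control array 3 had the lowest median correlation with the other arrays, 0.976.

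Cells build cholesterol from acetyl-CoA. Acetyl-CoA units are joined into mevalonate, mevalonate is turned into isoprenoid units, these are joined into squalene, and squalene is oxidised and closed into lanosterol, which further enzymes trim to cholesterol. Several of the late steps use molecular oxygen. The transcription factor SREBP-2, encoded by Srebf2, switches these genes on when membranes run short of sterol: SCAP escorts it to the Golgi for cleavage, and the INSIG proteins hold it back when sterol is plentiful. SREBP-1c, from Srebf1, acts more on the genes that make fatty acids and desaturate them. In the brain, cholesterol is made locally because plasma lipoproteins do not cross the blood-brain barrier, and microglia take up and process lipid from myelin and dying cells.

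After ischemia, the sterol synthesis enzymes lay slightly above control as a group in both genotypes. The fatty acid genes split evenly in WT cells, and in KO-labelled cells their slight upward lean was close to that of bright genes in general. In KO-labelled cells 14 of the 17 measured enzymes had a higher mean after ischemia, with a median difference of 0.25 log2 units (range -0.08 to 0.62). In WT cells all 17 did, with a median of 0.24 (range 0.13 to 0.54). Over all genes tested, 49.8% were higher in KO-labelled cells and 52.4% in WT cells, with medians of -0.00 and 0.01. Bright genes leaned upward in general: among the 4275 genes tested within 1 log2 unit of the members' median signal, 64.3% were higher in KO-labelled cells (median 0.07) and 78.2% in WT cells (median 0.10). The 10 fatty acid genes had 7 higher and 3 lower in KO-labelled cells (median 0.07) and 5 higher and 5 lower in WT cells (median 0.01). Some members lay outside the window of bright genes, which is centred on 9.31. Among them were Scd1, Elovl6, Acss2 and Acly at 5.99, 6.45, 7.10 and 10.85, and the sterol enzymes Pmvk and Msmo1 at 7.62 and 12.14. The 2 branches were thus not matched in brightness to these genes or to each other. With RNA from whole cultures, fewer cells of a type and less RNA per cell cannot be told apart.

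Single genes passed the test only when the pairing of arrays was used. The limma fit with 1 mean per group called 0 of the 33 genes in either ischemia comparison at a Benjamini-Hochberg adjusted p under 0.05, against a background of 0% of all genes in KO-labelled cells and 0.0131% in WT cells. At an unadjusted p under 0.05 it counted 8 of the 17 sterol enzymes as higher in KO-labelled cells and 7 in WT cells, against 5.66% and 7.38% of all genes, and none as lower, against 3.08% and 7.29%. It counted none of the 10 fatty acid genes in either direction. Same-numbered ischemia and control arrays of a genotype deviated together. A limma fit with that number as a block (the paired fit) called Cyp51 and Idi1 as higher in KO-labelled cells, where 0.537% of all genes were called higher. In WT cells it called Nsdhl as higher, where 2.99% of all genes were. That is 1 of the 33 genes, near the share of all genes, so the WT count does not set the members apart.

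The mean signal of the 17 sterol enzymes shows the group on each array. In KO-labelled cells it was 9.37, 9.26 and 9.44 log2 units after ischemia (arrays 1 to 3), against 9.15, 9.07 and 9.13 in control. In WT cells it was 9.47, 9.08 and 9.32 after ischemia, against 9.12, 8.98 and 8.95 in control. The KO-labelled groups did not overlap, whereas WT ischemia array 2 lay below WT control array 1. Within same-numbered pairs the enzyme mean was higher after ischemia by 0.22, 0.19 and 0.30 in KO-labelled cells and by 0.35, 0.10 and 0.38 in WT cells, so it was higher in all 6 pairs. Of 8 marker lists of cell types, 3 had means that did not overlap between ischemia and control in a genotype, each lower after ischemia. Of all 15273 genes tested, 971 in KO-labelled cells and 1885 in WT cells lay apart in that direction, so a few such lists are not unusual. The microglial list lay at 9.44 to 9.53 after ischemia and 9.62 to 9.66 in control in KO-labelled cells. In WT cells the muscle list lay at 6.11 to 6.20 after ischemia and 6.23 to 6.28 in control, and the neuron list, with 2 of 7 genes above the dim limit, at 5.10 to 5.25 and 5.26 to 5.32. Their part in the sterol difference was not tested.

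The mean of the 10 fatty acid genes differed less, with both signs among the pairs. It was 8.88, 8.69 and 8.94 log2 units in KO-labelled ischemia, against 8.84, 8.75 and 8.67 in KO-labelled control. It was 9.18, 8.43 and 8.83 in WT ischemia, against 9.27, 8.55 and 8.67 in WT control. The pair differences were 0.04, -0.06 and 0.27 in KO-labelled cells and -0.09, -0.12 and 0.16 in WT cells. The pair difference of the sterol mean exceeded that of the fatty acid mean in each pair, by 0.18, 0.25 and 0.03 in KO-labelled cells and by 0.43, 0.22 and 0.22 in WT cells. The 5 regulators averaged 9.63 ± 0.10 after ischemia and 9.65 ± 0.08 in control in KO-labelled cells, and 9.61 ± 0.17 and 9.54 ± 0.10 in WT cells (SD, n = 3 each).

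**Figure D1:**
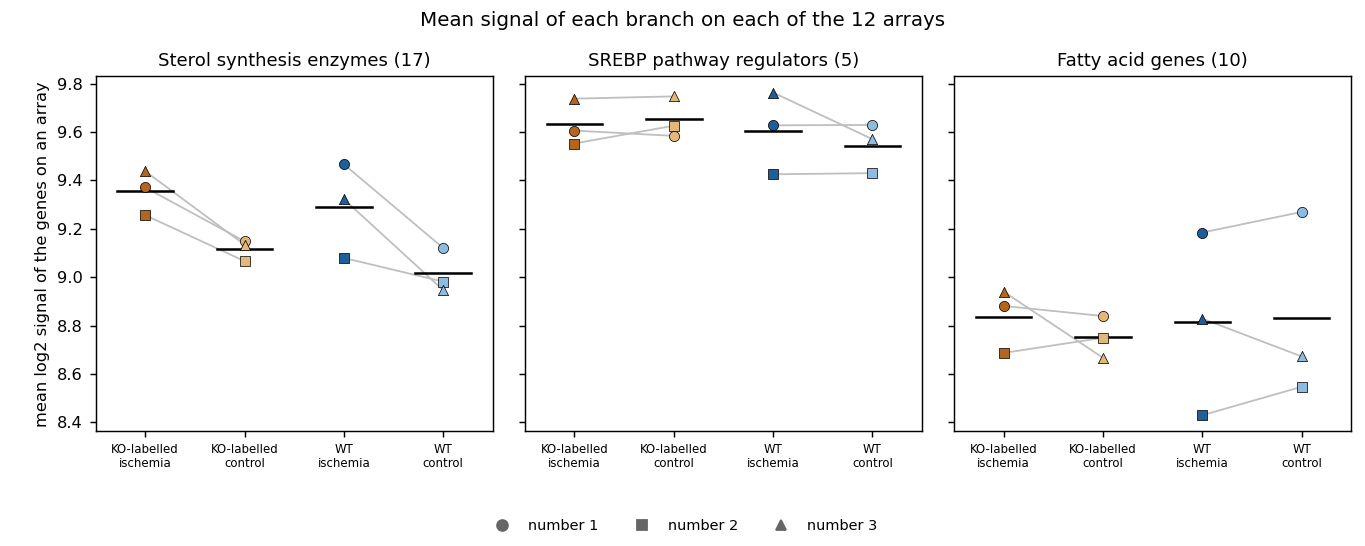
Mean log2 signal of the sterol synthesis enzymes, the regulators and the fatty acid genes on each of the 12 arrays. Points are arrays, shapes give the array number, grey lines join same-numbered arrays of a genotype and black bars are group means (n = 3). All 6 lines of the sterol panel are higher at the ischemia end, while the fatty acid panel has lines of both slopes and the widest spread among WT arrays.

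Promoter sequences from RefSeq (GRCm38.p6) were read for 27 of the 34 genes, over the 250 bases before each gene's start. Of 9 motif forms searched on both strands, 4 are given. CCAAT, the box bound by the factor NF-Y, which acts with SREBP at sterol genes, was present in 14 of 15 sterol enzymes (93.3%), 4 of 5 regulators (80.0%) and 3 of 7 fatty acid genes (42.9%), against 37.5% of all 27025 genes with an entry. TCACNCCAC, a form of the sterol regulatory element, was found in 1 of the 27, Hmgcs1, 137 to 129 bases before the start, against 1.22% of all genes. The shorter CACNCCAC inside it was found in 3 of 27 (Hmgcs1, Acat2 and Insig1), against 6.05%. The E-box CACGTG was found in 6 of 27 (22.2%), against 6.86%. A match describes letters in this window and is not a measured binding site.

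The windows of the 3 enzymes that passed the paired fit in a genotype, and of Hmgcs1 with the sterol element, are printed 5′ to 3′ in the direction of the gene. CCAAT or its reverse complement, and in Hmgcs1 also the sterol element, are in capitals.
Nsdhl, chrX:72918271-72918520, plus strand: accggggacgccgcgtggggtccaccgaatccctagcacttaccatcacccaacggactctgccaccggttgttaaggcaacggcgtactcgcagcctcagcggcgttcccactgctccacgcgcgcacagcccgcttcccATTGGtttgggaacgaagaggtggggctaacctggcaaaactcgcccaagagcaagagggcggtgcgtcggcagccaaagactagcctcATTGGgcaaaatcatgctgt
Idi1, chr13:8885356-8885605, plus strand: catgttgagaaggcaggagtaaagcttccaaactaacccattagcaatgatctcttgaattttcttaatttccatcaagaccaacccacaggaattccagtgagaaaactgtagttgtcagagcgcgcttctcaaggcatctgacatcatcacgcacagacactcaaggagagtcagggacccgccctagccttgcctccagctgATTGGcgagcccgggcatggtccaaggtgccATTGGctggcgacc
Cyp51, chr5:4104698-4104947, minus strand: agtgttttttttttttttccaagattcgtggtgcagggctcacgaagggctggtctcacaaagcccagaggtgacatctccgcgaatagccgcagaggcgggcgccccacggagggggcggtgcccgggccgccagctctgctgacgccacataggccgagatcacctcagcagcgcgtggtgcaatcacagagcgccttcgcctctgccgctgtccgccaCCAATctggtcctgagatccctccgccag
Hmgcs1, chr13:119690101-119690350, plus strand: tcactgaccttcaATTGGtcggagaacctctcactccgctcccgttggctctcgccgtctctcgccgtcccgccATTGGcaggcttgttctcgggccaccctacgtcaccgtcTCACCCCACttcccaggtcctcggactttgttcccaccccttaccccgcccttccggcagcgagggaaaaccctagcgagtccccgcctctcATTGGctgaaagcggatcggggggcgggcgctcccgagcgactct
Nsdhl and Idi1 hold 2 CCAAT boxes each, Cyp51 holds 1 and Hmgcs1 holds 3.

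The early enzymes carry acetyl units to farnesyl diphosphate. Hmgcs1, which makes HMG-CoA, the precursor of mevalonate, read 10.28, 10.28 and 10.20 log2 units in KO-labelled ischemia, against 10.20, 9.91 and 9.60 in KO-labelled control. It read 10.32, 9.87 and 10.14 in WT ischemia, against 10.09, 9.93 and 9.93 in WT control. The difference was 0.35 (SE 0.15) in KO-labelled cells and 0.13 (SE 0.15) in WT cells, and WT pair 2 was slightly lower after ischemia. Limma gave it adjusted p-values of 0.560 and 0.689.

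Mevalonate is then phosphorylated by Mvk and Pmvk and decarboxylated by Mvd. Pmvk, phosphomevalonate kinase, was higher in WT cells by 0.33 log2 units (SE 0.12), with pair differences of 0.31, 0.30 and 0.37, and limma's paired fit gave an adjusted p of 0.0614. Its levels were 7.85, 7.72 and 7.66 in WT ischemia, against 7.54, 7.42 and 7.29 in WT control, without overlap. In KO-labelled cells the same gene differed by 0.07, with pair differences of 0.10, 0.00 and 0.10. Mvk differed by 0.08 in KO-labelled cells and 0.14 in WT cells, and Mvd by -0.08 and 0.22.

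Idi1, the isomerase that interconverts the isoprenoid building blocks, was 9.88, 9.57 and 9.79 log2 units in KO-labelled ischemia, against 9.43, 9.11 and 9.04 in KO-labelled control. The groups did not overlap, and the difference was 0.55 (SE 0.14 by group means), a fold of 1.47. Limma's adjusted p was 0.560 by group means and 0.0316 in the paired fit, where the pairs differed by 0.45, 0.46 and 0.75. In WT cells Idi1 was 9.86, 9.38 and 9.46 after ischemia, against 9.43, 9.29 and 9.37 in control, a difference of 0.21 that lay mostly in pair 1. A further probe set of Idi1 gave differences of 0.57 in KO-labelled cells and 0.14 in WT cells. Fdps, which makes farnesyl diphosphate, differed by 0.37 (SE 0.15) in both genotypes. Its pair differences were 0.37, 0.38 and 0.35 in KO-labelled cells but 0.44, 0.00 and 0.67 in WT cells.

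Fdft1, Sqle and Lss commit the pathway to sterols. Sqle, the epoxidase that puts oxygen on squalene, differed by similar amounts in both genotypes. It read 10.33, 10.03 and 10.30 log2 units in KO-labelled ischemia, against 10.004, 9.78 and 9.81 in KO-labelled control, and 10.21, 9.94 and 9.92 in WT ischemia, against 9.73, 9.72 and 9.56 in WT control. The groups did not overlap in either genotype, and the difference was 0.35 (SE 0.12) in both, a fold of 1.28. Limma's paired fit gave adjusted p-values of 0.0974 in KO-labelled cells and 0.0595 in WT cells, both above the threshold. Fdft1, squalene synthase, differed by 0.24 in KO-labelled cells and 0.16 in WT cells on its brightest probe set and by 0.50 and 0.31 on a second one. Lss, which closes the ring of lanosterol, differed by 0.17 and 0.18.

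Beyond lanosterol, Cyp51 had the largest difference of the set in KO-labelled cells and Nsdhl in WT cells. Cyp51, the demethylase of lanosterol, was 9.99, 9.78 and 9.89 log2 units in KO-labelled ischemia, against 9.61, 9.14 and 9.04 in KO-labelled control. The groups were apart, the difference was 0.62 (SE 0.16 by group means, 0.11 in the paired fit) and the fold 1.54. Limma's adjusted p was 0.560 by group means and 0.0278 in the paired fit, with pair differences of 0.37, 0.64 and 0.84. In WT cells it was 9.90, 9.38 and 9.59 after ischemia, against 9.42, 9.27 and 9.52 in control, a difference of 0.22 (SE 0.16). The KO-labelled control array 3, which correlated least with the others, held the lowest values of both Cyp51 and Idi1. Without that array the differences were 0.51 and 0.47, and in the paired fit without pair 2 or without pair 3 neither gene passed (adjusted p-values by limma between 0.215 and 0.273).

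Nsdhl, a dehydrogenase that helps to remove the methyl groups of lanosterol, was 9.43, 9.01 and 8.99 log2 units in WT ischemia, against 8.57, 8.96 and 8.29 in WT control. All 3 ischemia arrays lay above all 3 controls, and the difference was 0.54 (SE 0.16), a fold of 1.45. The pairs were uneven, at 0.86, 0.05 and 0.69, since WT control array 2 read almost as high as its ischemia partner. Limma gave an adjusted p of 0.269 by group means and 0.0404 in the paired fit. Without WT pair 2 the paired fit gave 0.78, and without pair 1 or pair 3 it gave 0.37 and 0.46, neither past the threshold (limma adjusted p-values of 0.330 and 0.178). In KO-labelled cells Nsdhl was 9.11, 9.05 and 9.06 after ischemia, against 8.80, 8.78 and 8.59 in control, again apart, and differed by 0.35 (SE 0.16).

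The neighbouring enzymes Msmo1 and Hsd17b7 act with Nsdhl in the same demethylation. Hsd17b7 was 9.03, 8.74 and 8.87 log2 units in KO-labelled ischemia, against 8.72, 8.40 and 8.38 in KO-labelled control, and 8.73, 8.76 and 8.59 in WT ischemia, against 8.44, 8.42 and 8.25 in WT control. It was higher by 0.38 (SE 0.12) in KO-labelled cells and 0.32 (SE 0.12) in WT cells, with all pairs between 0.29 and 0.50, and limma's paired fit gave adjusted p-values of 0.0724 and 0.0662. Msmo1, the methyl sterol oxidase, differed by 0.35 and 0.26, and Tm7sf2, a sterol reductase, by 0.17 and 0.24.

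Ebp, the sterol isomerase near the end of the pathway, had the smallest unadjusted p of the set for a difference between the genotypes in the ischemia effect. It read 8.30, 8.25 and 8.62 log2 units in KO-labelled ischemia, against 8.32, 8.49 and 8.59 in KO-labelled control, which overlap. It read 8.73, 8.21 and 8.93 in WT ischemia, against 8.14, 8.16 and 8.17 in WT control, which do not. The differences were -0.08 (SE 0.16) and 0.47 (SE 0.16), and the interaction was -0.55 (SE 0.23), which limma gave an unadjusted p of 0.0347 and an adjusted p of 0.9996. Of the last enzymes, Sc5d differed by 0.25 in KO-labelled cells and 0.21 in WT cells, and Dhcr7 by -0.08 and 0.33. Stard4, which carries cholesterol between membranes, differed by 0.21 and 0.05.

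**Figure D2:**
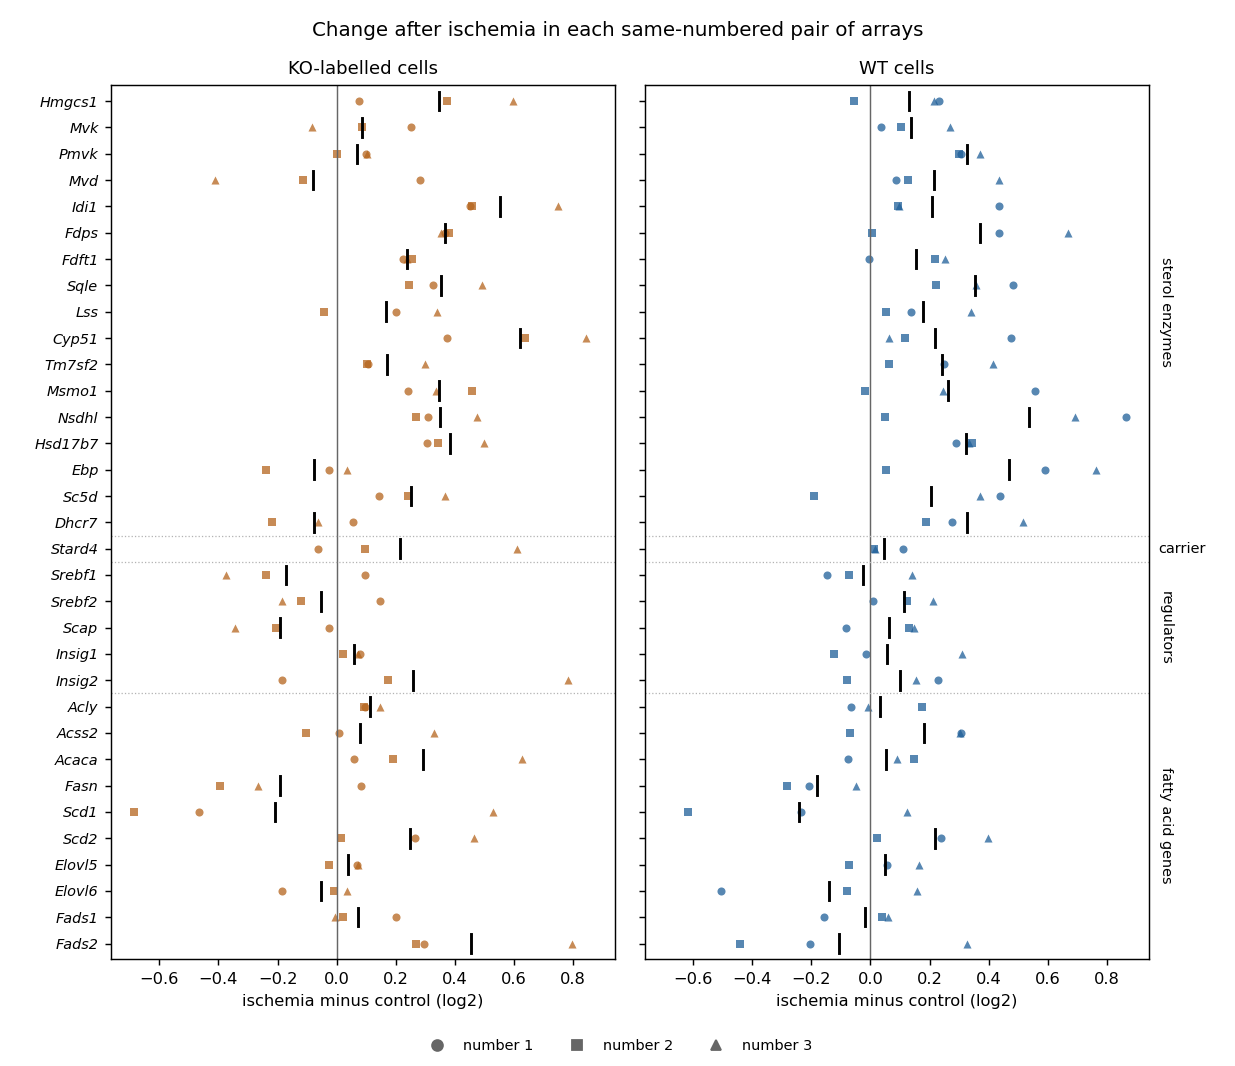
Difference between ischemia and control arrays (log2, horizontal axis) of each of the 33 measured genes in each same-numbered pair, in KO-labelled cells (left) and WT cells (right). Shapes give the pair number and black bars the mean of the 3 pairs. Sterol enzymes lie mostly right of 0 in both panels, and 8 of 17 do so in all 6 pairs. Of the fatty acid genes 1 of 10 does, near the 10.7% of all genes tested. Among genes within 1 log2 unit of the members' median signal the share is 16.8%.

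The enzymes that were higher in every pair were counted. All 3 pairs were higher for 12 of the 17 enzymes in KO-labelled cells and for 13 in WT cells, against 20.8% and 25.8% of all genes tested. Among the genes within 1 log2 unit of the members' median signal these shares were 31% and 39.1%. Groups that did not overlap, with ischemia higher, were found for 9 enzymes in KO-labelled cells and 7 in WT cells, against 7.94% and 9.38% of all genes. In all 6 pairs 8 enzymes were higher, namely Pmvk, Idi1, Fdps, Sqle, Cyp51, Tm7sf2, Nsdhl and Hsd17b7, against 10.7% of all genes and 16.8% of the genes within 1 log2 unit of the members' median signal. Pmvk and Fdps were each higher by less than 0.01 in 1 of these pairs. Of the 10 fatty acid genes, 4 (Acly, Acaca, Scd2 and Fads2) were higher in all 3 KO-labelled pairs and 1 (Scd2) in all 3 WT pairs. Among the fatty acid genes only Scd2 was higher in all 6, and among the regulators none. Quantile normalization of the deposited values lowered the median of the sterol enzymes to 0.17 in both genotypes.

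**Figure D3:**
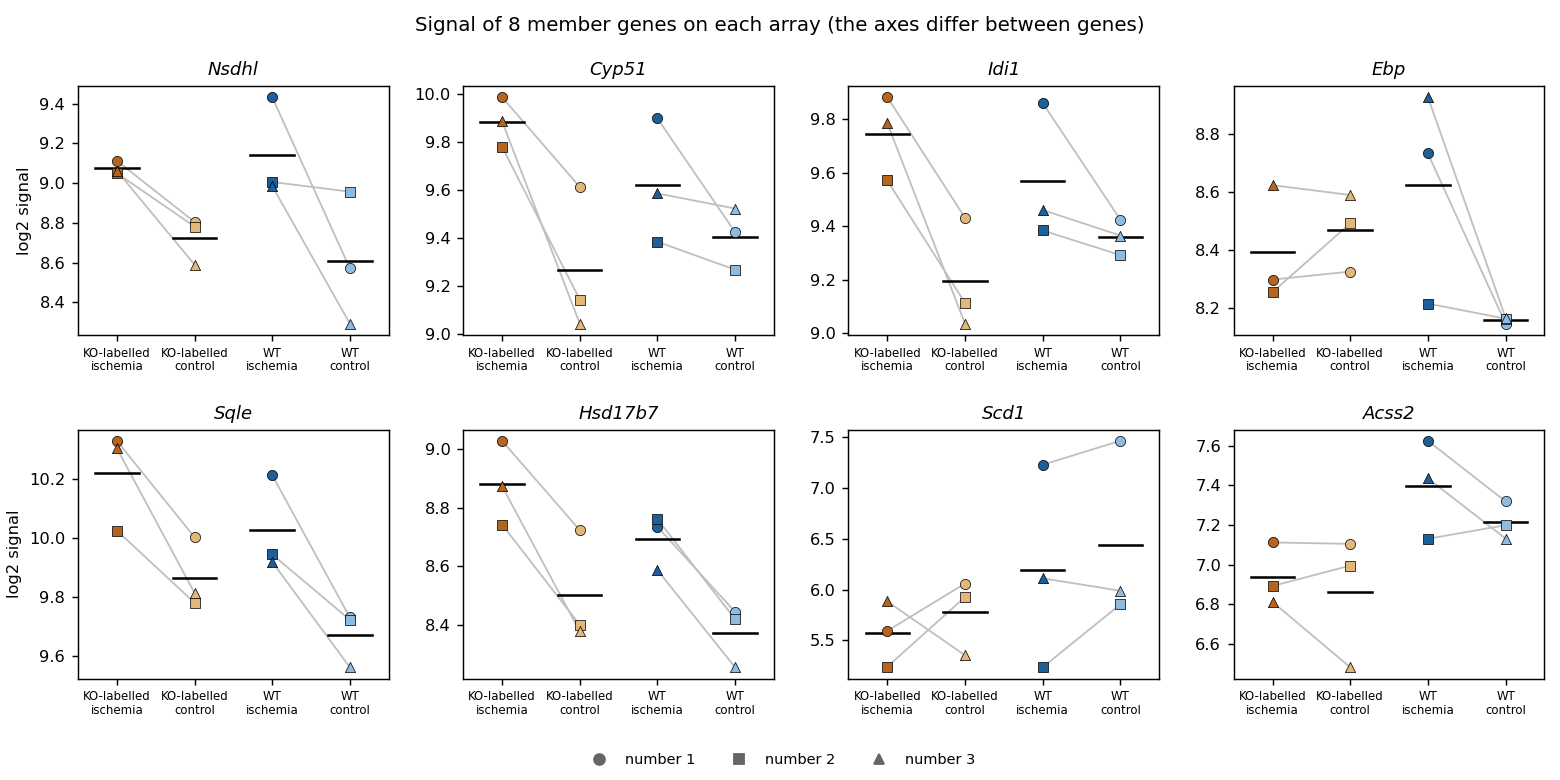
Log2 signal of 8 genes on each array, with group means as black bars (n = 3), same-numbered arrays joined by grey lines and a separate vertical axis for each gene. Nsdhl, Cyp51, Idi1, Sqle and Hsd17b7 are higher at the ischemia end of all 6 lines, and Ebp is not. Scd1 varies more with the array number in WT cells than with ischemia. The Acss2 points of KO-labelled cells lie below those of WT cells in the same condition by a narrow margin, and limma did not call this difference.

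The regulators showed smaller differences of both signs. Insig1, which retains SCAP in the endoplasmic reticulum and is itself a target of SREBP-2, was 10.71, 10.59 and 10.93 log2 units in KO-labelled ischemia, against 10.63, 10.57 and 10.85 in KO-labelled control. It was 10.82, 10.20 and 11.06 in WT ischemia, against 10.84, 10.33 and 10.75 in WT control. Its differences were 0.06 (95% interval -0.38 to 0.49) and 0.06 (-0.38 to 0.49). Srebf2 differed by -0.05 in KO-labelled cells and 0.11 in WT cells, Srebf1 by -0.17 and -0.03, Scap by -0.19 and 0.06, and Insig2 by 0.26 and 0.10. No regulator had non-overlapping ischemia and control groups in either genotype. In KO-labelled cells the largest of these differences, that of Insig2, rested on pair 3, with pair differences of -0.18, 0.17 and 0.78. Pair 3 holds the control array that correlated least with the others. Scap was lower in all 3 KO-labelled pairs (-0.03, -0.21 and -0.35), which 18.7% of all genes were. Srebf1 had pair differences of 0.09, -0.24 and -0.37 there.

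Fatty acid synthesis starts from cytosolic acetyl-CoA, supplied by Acly from citrate and by Acss2 from acetate. Acly was 10.87, 10.81 and 11.02 log2 units in KO-labelled ischemia, against 10.78, 10.72 and 10.87 in KO-labelled control, and differed by 0.11 there and by 0.03 in WT cells. Acss2 differed by 0.08 and 0.18. Acaca, the carboxylase that makes malonyl-CoA, differed by 0.29 (SE 0.24) in KO-labelled cells and 0.05 in WT cells. Fasn, which builds palmitate, was lower after ischemia in both, at -0.19 (SE 0.27) in KO-labelled cells and -0.18 (SE 0.27) in WT cells. It was lower in all 3 WT pairs (-0.21, -0.28 and -0.05), which 22.9% of all genes were, and in 2 of 3 KO-labelled pairs.

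The desaturases and elongases pointed several ways. Scd2, a stearoyl-CoA desaturase of brain, was 9.85, 9.41 and 9.94 log2 units in KO-labelled ischemia, against 9.59, 9.40 and 9.47 in KO-labelled control. It was 10.06, 8.90 and 9.29 in WT ischemia, against 9.82, 8.88 and 8.89 in WT control. It differed by 0.25 and 0.22 and was higher in all 6 pairs, by 0.02 to 0.47. Scd1, its relative, differed by -0.21 (SE 0.47) and -0.24 (SE 0.47), with both signs among the pairs of each genotype. Fads2, the first desaturase of polyunsaturated fatty acids, differed by 0.45 (SE 0.32) in KO-labelled cells, with pairs of 0.29, 0.27 and 0.80, and by -0.11 in WT cells, with pairs of -0.21, -0.44 and 0.33. Its partner Fads1 differed by 0.07 and -0.02, the elongase Elovl5 by 0.04 and 0.05, and the elongase Elovl6 by -0.05 and -0.14.

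In WT cells the fatty acid genes varied between pairs more than with ischemia. Averaged over the 2 arrays of a pair, Scd1 was 7.34, 5.54 and 6.05 log2 units in WT pairs 1 to 3, Scd2 9.94, 8.89 and 9.09, Fasn 9.80, 8.84 and 9.59, and Fads2 8.998, 8.04 and 7.98. All 10 fatty acid genes were highest in WT pair 1, which 30.7% of all genes were, and 8 of the 10 were lowest in pair 2, which 41.5% of all genes were. The median range between pair means was 0.74 log2 units for the fatty acid genes in WT cells, against 0.31 for the sterol enzymes and 0.20 over all genes. In KO-labelled cells the ranges were 0.28 for the fatty acid genes, 0.30 for the sterol enzymes and 0.21 over all genes. Dhcr7 was the sterol enzyme with the widest range in WT cells, with pair means of 9.41, 8.52 and 9.09.

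Marker lists of cell types also differed among the WT pairs. The list of 7 measured oligodendrocyte lineage genes averaged 7.05 and 7.19 log2 units on the pair 1 ischemia and control arrays, against 6.79 to 6.94 on the other WT arrays, and all 7 were above the dim limit. The microglial list was highest on the pair 2 arrays. The astrocyte list, with 6 of 8 genes above the limit, read 6.58 and 6.59 on the pair 1 arrays and 6.13 and 6.32 on the pair 2 arrays. The part of these marker levels in the fatty acid values was not tested. Leaving out WT ischemia array 1 or WT control array 1 changed the number of fatty acid genes higher after ischemia to 1 and to 10 of 10, and leaving out WT ischemia array 2 or WT control array 2 changed it to 9 and to 2, against 5 with all arrays, while the sterol count was 17 of 17 each time. The median of the sterol enzymes in WT cells was 0.14 without WT ischemia array 1.

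**Figure D4:**
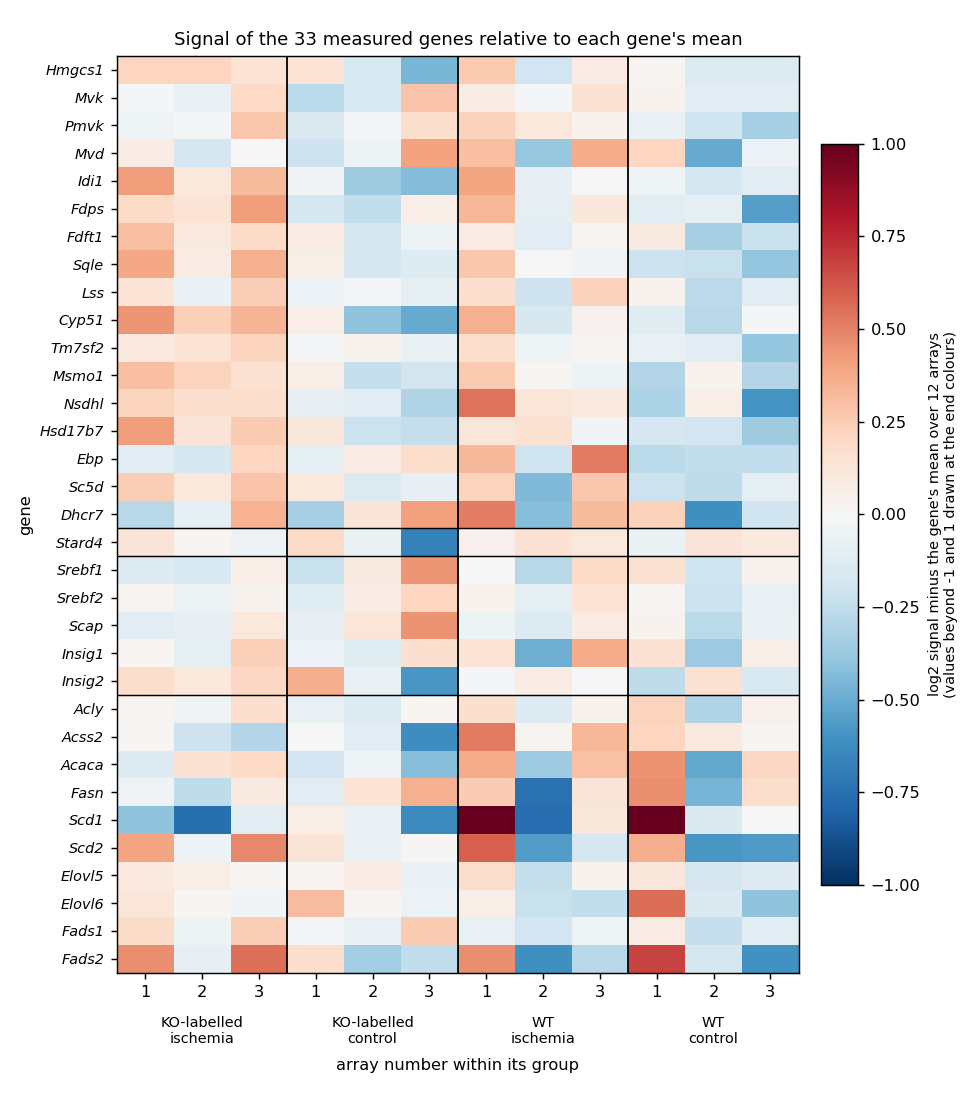
Log2 signal of the 33 measured genes on the 12 arrays relative to each gene's own mean, with genes in rows by role and arrays in columns by group and number. Red is above and blue below the gene's mean. Between 11 and 17 of the 17 sterol enzymes are red on each ischemia array other than WT ischemia array 2, where 4 are. Of the 10 fatty acid genes 9 and 10 are red on the WT ischemia and control arrays numbered 1, and 1 is on each WT array numbered 2.

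The KO-labelled and WT cells were compared under the same condition. Limma called none of the 33 genes in ischemia, where 0.714% of all genes were called, and none in control, where 0.0589% were. At an unadjusted p under 0.05 limma counted 1 gene in ischemia, Acss2, as lower in KO-labelled cells, where 4.56% of all genes were counted as lower and 3.79% as higher. It counted 0 in control, against 3.65% of all genes as lower and 3.5% as higher. Sterol enzymes were higher in KO-labelled than in WT cells for 11 of 17 after ischemia (median 0.13) and 14 of 17 in control (median 0.13), against 52.7% and 50.8% of all genes. Among genes within 1 log2 unit of the members' median signal, 37.4% (median -0.04) and 47.8% (median -0.01) were higher. Single arrays moved the sterol medians: in ischemia the median was 0.02 (9 of 17 higher) without WT ischemia array 2, 0.06 without KO-labelled ischemia array 3 and 0.21 without WT ischemia array 1. In control it was 0.08 without KO-labelled control array 1 and 0.07 (11 of 17 higher) without WT control array 3. Fatty acid genes were higher for 7 of 10 and 5 of 10 (medians 0.06 and 0.01). The groups did not overlap, with KO-labelled cells higher, for 2 of the 33 genes after ischemia (Fdft1 and Insig2), where 8.38% of all genes did so. In control this held for 2 of the 33 (Sqle and Ebp), where 5.37% did. Both counts are near the shares of all genes. These comparisons use the same arrays as those of ischemia.

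Acss2, the acetyl-CoA synthetase, was the member that differed most between genotypes by p. It was 7.11, 6.89 and 6.81 log2 units in KO-labelled ischemia, against 7.62, 7.13 and 7.44 in WT ischemia, and 7.11, 6.996 and 6.48 in KO-labelled control, against 7.32, 7.20 and 7.13 in WT control. The KO-labelled arrays lay below the WT arrays in both conditions, as 8.07% and 4.52% of all genes did in ischemia and in control. The differences were -0.46 (SE 0.17) and -0.36 (SE 0.17), with limma adjusted p-values of 0.413 and 0.703. Scd1 had larger differences, -0.62 and -0.65, but an SE of 0.47. It read under the dim limit of 5.36 on KO-labelled ischemia array 2 (5.24), KO-labelled control array 3 (5.35) and WT ischemia array 2 (5.24). The Scd1 differences thus rest partly on dim values. They also rest on the WT ischemia and control arrays numbered 1, at 7.23 and 7.46 against 5.24 to 6.11 on the other WT arrays. Across the other settings, single arrays left out included, they ranged over -1.10 to -0.10 in ischemia and -0.95 to -0.14 in control. In the interaction, which asks whether the ischemia effect differed between genotypes, limma called 0 of the 33 genes by group means, as it did of all genes (0%), and 0 in the paired fit, where it called 0.308% of all genes. By group means the unadjusted p was under 0.05 for Ebp alone, with a negative interaction, as it was for 1.4% of all genes, and 1.5% had a positive one.

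Further genes of both pathways were taken from a list. Of 16 other genes of sterol and isoprenoid handling 12 were tested, and after ischemia 7 were higher in KO-labelled cells (median 0.10) and 11 in WT cells (median 0.12). Over all genes 49.8% and 52.4% were higher. Among genes within 1 log2 unit of the members' median signal 64.3% (median 0.07) and 78.2% (median 0.10) were. Stard3, which tethers late endosomes to the endoplasmic reticulum and moves cholesterol between them, passed limma's paired fit in WT cells with a difference of 0.42 (adjusted p 0.0328, pairs of 0.44, 0.32 and 0.49), but not the fit by group means (limma adjusted p 0.273), and differed by -0.03 in KO-labelled cells. The paired fit called 2.99% of all genes higher in WT cells. Npc2, which binds cholesterol in lysosomes, differed by -0.01 in KO-labelled cells and 0.31 in WT cells, where limma's paired fit gave an adjusted p of 0.0731. Erlin2, of the endoplasmic reticulum, differed by 0.24 and 0.22, Mbtps1, the protease that makes the first cut in SREBP, by 0.24 and 0.13, and Ggps1, which makes geranylgeranyl diphosphate, by 0.21 and 0.17.

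Of 25 other genes of fatty acid and lipid synthesis 22 were tested, with 10 higher in KO-labelled cells (median -0.02) and 13 in WT cells (median 0.05), and neither fit called any. Over all genes 49.8% and 52.4% were higher. Me1, the malic enzyme that supplies NADPH, differed by 0.15 in KO-labelled cells and by -0.44 (SE 0.14) in WT cells, where limma's paired fit gave an adjusted p of 0.0566. Mid1ip1, which activates acetyl-CoA carboxylase, differed by -0.47 in KO-labelled cells and -0.16 in WT cells. Hacd3, a dehydratase of very long chain fatty acids, differed by 0.30 and 0.02, Lpin2, a phosphatidate phosphatase, by -0.28 and -0.19, Oxsm of mitochondrial fatty acid synthesis by 0.38 and 0.38, and Fads3 by 0.01 and -0.21.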

How the data were processed

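The submitters' processing notes name Affymetrix Expression Console 1.1 and RMA for the authors' deposited values, which are log2 signals of probe sets. RMA corrects background, normalizes arrays by quantiles and summarises probes. No source used here names the genome build of the array annotation. Groups and numbers came from the sample titles. Of 35557 probe sets 21789 had 1 gene symbol, updated through Entrez identifiers (21698 matched a GRCm38.p6 gene table), and the brightest stood for its gene. A gene was tested if its mean exceeded the 30th percentile of probe sets (5.36).

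Limma 3.58.1 in R 4.3.3 (lmFit, eBayes) fitted 1 mean per group over all 12 arrays for 5 contrasts, with Benjamini-Hochberg adjustment over 15273 genes and calls at 0.05. Folds are powers of 2 of the log2 differences. The steps were tested on simulated data with known changes. All members are named; full statistics go to called members, then to up to 8 per contrast with the smallest p, and 3 genes are named per other list and ischemia contrast. Members and lists were chosen with earlier results of these data known, and the comparison with bright genes was added after the values were seen.

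Same-numbered arrays deviated together within a genotype over all genes (correlations of 0.36, 0.32 and 0.49 in KO-labelled and 0.48, 0.73 and 0.48 in WT cells, each above 0.1), while differently numbered ones correlated at -0.62 to 0.40. Deviations from a group mean cancel out over the 3 arrays of the group, so the same-numbered and differently numbered correlations are not independent. Between genotypes the same-numbered arrays did not all pass 0.1. The pairing within a genotype therefore rests on these same data, as do the calls of the paired fit. Alternatives were the arrays in the fit, the replicate block, the dim filter, quantile normalization, median centring, the mean of all probe sets, eBayes with trend and robust, and leaving out arrays or pairs. Promoter motifs were searched with Python 3.11.15.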

Additional observations from a re-analysis of the deposited data

How the results depend on the processing

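The counts of sterol enzymes higher after ischemia stayed at 12 to 16 of 17 in KO-labelled cells and at 17 in WT cells with any array left out, and at 14 to 15 and 17 in the paired fit without any 1 pair. Their medians ranged over 0.20 to 0.32 in KO-labelled cells and 0.14 to 0.34 in WT cells with an array left out. The fatty acid medians ranged over 0.03 to 0.13 and -0.14 to 0.19, and their counts of higher genes over 6 to 8 and 1 to 10, with 2 in WT cells under quantile normalization. Between genotypes the sterol median ranged over 0.02 to 0.21 in ischemia (9 to 14 higher) and 0.07 to 0.17 in control (11 to 14 higher) with an array left out. The fatty acid count between them ranged over 4 to 8 in ischemia and 4 to 7 in control, and in the interaction over 3 to 10, with the sterol count over 6 to 11 and at 12 in the paired fit without WT pair 3. The replicate block within genotype raised the genes called by limma from 0 to 99 in KO-labelled cells and from 2 to 570 in WT cells, the members called from 0 to 2 and from 0 to 1, and the interaction calls from 0 to 47. Limma's paired fit without 1 pair called 2 to 753 genes in KO-labelled cells (2, 4, 91, 100, 116 and 753) and 143 to 767 in WT cells (143, 248, 368, 488, 714 and 767), with 0 to 3 members (0, 2 or 3, and 0, 1, 2 or 3), and 20 to 49 in the interaction (20, 25, 26, 27, 30 and 49). These settings were chosen after the data were seen. Without WT pair 2 they called Fdps, Nsdhl and Ebp in WT cells; without KO-labelled pair 1 they called Hmgcs1, Idi1 and Cyp51 in KO-labelled cells. A block of 3 levels over all arrays gave 1 call in KO-labelled cells, 236 between genotypes in ischemia (109 without it) and 31 in control (9 without it), and changed no call of a member. With only the arrays compared, 0 genes were called between genotypes in control and 1 in WT ischemia, as with quantile normalization. With an array left out, limma called 0 genes in KO-labelled ischemia, 1 to 79 in WT ischemia, 25 to 158 and 0 to 23 between genotypes in ischemia and control, and 0 to 1 in the interaction, and no member. No called value changed sign. The cause of these shifts was not tested. Scd1 read under the dim limit of 5.36 on 3 arrays. That limit is a percentile of the probe sets and not a measured detection floor, so how well such low values are resolved was not tested.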
